A study of Mus musculus with 39 samples.

Results

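The organic ion and drug transporters were taken as every gene whose symbol begins with Slc22a, Slco, Slc47a or Abcc followed by a number, which gave 53 genes of 24537 in the kidney, liver and lung table and of 52508 in the skin table. RNA was counted at its 3′ end in bulk kidney, liver, lung and skin of Prf1-/- mice on a C57BL/6 background, which the study describes as male. These mice lack perforin, the pore-forming protein that cytotoxic lymphocytes use to kill target cells, in every group, and no perforin-proficient group was part of the comparisons. Young mice were 3 months old and untreated (4 mice for kidney, liver and lung, 3 for skin). The remaining 2 groups were killed at 20 months, after receiving either a vehicle based on DMSO or ABT-737 at 25 mg/kg, an inhibitor of BCL-2 family proteins, by intraperitoneal injection on 2 days of each of 2 months from the age of 18 months (3 mice each per tissue). The vehicle against young comparison therefore covered age together with vehicle injection, and the ABT-737 against vehicle comparison covered treatment at one age.

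These carriers decide which small molecules enter and leave the cells of excretory organs. In the kidney, organic anion and cation carriers of the SLC22 family draw drugs, urate and metabolic end products from the blood into the proximal tubule cell, and MATE carriers (Slc47a) and ATP-driven pumps of the ABCC family, the multidrug resistance proteins, move them on into the urine. In the liver, organic anion transporting polypeptides (Slco) take up bile acids, steroid conjugates and drugs from portal blood, and ABCC pumps export conjugates into bile or back into blood. Several members, Slco1a1 among them, are known for higher expression in male than in female mice.

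Of the 12 members called between groups of any tissue, 5 lie in a pair of gene clusters, which hold 6 and 6 of all 53 members. Whether called members lie there more often than others was not tested, and the shares of all genes called are given with each comparison below. Slco1c1, Slco1b2, Slco1a4, Slco1a1, Slco1a6 and Slco1a5 lie within 799 kb of chromosome 6 (141524386 to 142322981, GRCm38), and Slc22a19, Slc22a26, Slc22a27, Slc22a28, Slc22a29 and Slc22a30 within 732 kb of chromosome 19 (7673076 to 8405105). Of the 53 members, 42 matched an entry of RefSeq promoters on GRCm38.p6. The 250 bases before the RefSeq start are shown 5′ to 3′ on the gene's strand for the 5 cluster members with a called difference between groups of a tissue, since they are the upstream sequence of the genes whose values are described. Capitals mark matches on either strand to 4 searched motifs: GTTAAT, a half-site of the hepatocyte factor HNF1; AGGTCA, a nuclear receptor half-site; TTCNNNGAA, a site of STAT5 or BCL6; and TATAAA, the core promoter element that binds TBP. Another search, for the HNF4 site CAAAGTCCA, had no match in these windows. The intervals were chr6:141946963-141947212 (minus strand), chr6:142186150-142186399 (minus), chr6:141629268-141629517 (plus), chr19:7711311-7711560 (minus) and chr19:8405106-8405355 (minus).
Slco1a1: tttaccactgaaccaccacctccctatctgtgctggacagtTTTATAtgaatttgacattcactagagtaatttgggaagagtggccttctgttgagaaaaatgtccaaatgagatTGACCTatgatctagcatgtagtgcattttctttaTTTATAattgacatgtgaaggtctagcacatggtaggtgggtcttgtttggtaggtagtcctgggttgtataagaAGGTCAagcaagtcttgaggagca
Slco1a6: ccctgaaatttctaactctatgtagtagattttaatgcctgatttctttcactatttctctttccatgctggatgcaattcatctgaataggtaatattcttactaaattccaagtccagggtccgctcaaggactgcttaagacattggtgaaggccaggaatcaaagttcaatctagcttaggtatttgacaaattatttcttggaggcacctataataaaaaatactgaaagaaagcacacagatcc
Slco1b2: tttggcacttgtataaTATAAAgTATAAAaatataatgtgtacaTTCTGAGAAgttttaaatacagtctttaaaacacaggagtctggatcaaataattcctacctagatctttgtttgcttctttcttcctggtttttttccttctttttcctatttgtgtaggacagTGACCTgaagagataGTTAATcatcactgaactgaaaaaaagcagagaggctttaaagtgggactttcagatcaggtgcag
Slc22a19: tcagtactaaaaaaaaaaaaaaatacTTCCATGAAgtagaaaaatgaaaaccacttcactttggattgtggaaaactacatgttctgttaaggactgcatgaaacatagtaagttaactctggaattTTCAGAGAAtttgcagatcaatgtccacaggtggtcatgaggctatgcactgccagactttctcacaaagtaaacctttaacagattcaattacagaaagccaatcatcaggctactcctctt
Slc22a30: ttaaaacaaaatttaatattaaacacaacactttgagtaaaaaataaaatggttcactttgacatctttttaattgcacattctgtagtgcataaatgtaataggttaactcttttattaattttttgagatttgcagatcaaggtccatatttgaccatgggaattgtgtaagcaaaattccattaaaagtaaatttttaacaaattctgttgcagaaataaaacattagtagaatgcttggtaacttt

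The Slco1a1 window held the nuclear receptor half-site at 24 to 19 bases and, on the other strand, at 134 to 129 bases before the start. Its 2 matches to the TATA letters were both on the other strand, at 209 to 204 and 99 to 94 bases before the start. The Slco1b2 window held the HNF1 half-site, 1 nuclear receptor half-site and 1 STAT5 or BCL6 site. It also held 2 matches to the TATA letters, at 234 to 229 and 227 to 222 bases before the start. The Slc22a19 window held 2 STAT5 or BCL6 sites, and the Slco1a6 and Slc22a30 windows held none of these letters. Among 32851 promoters of the same length, 6.43% held the HNF1 half-site, 14% the nuclear receptor half-site, 7.02% the STAT5 or BCL6 site, 12.4% the TATA letters at any position and 0.384% the HNF4 site. Of the 42 matched members, 4 held the HNF1 half-site, 7 the nuclear receptor half-site, 6 the STAT5 or BCL6 site, 4 the TATA letters at any position and 0 the HNF4 site. The 5 windows were rich in A and T, with GC contents of 25.6% (Slc22a30), 33.6% (Slco1b2), 35.6% (Slc22a19), 36.4% (Slco1a6) and 40.4% (Slco1a1). A match describes the letters in this window and was not tested as a binding site.

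Library totals ran from 1431814 to 3513311 counts in kidney, 223957 to 891116 in liver, 1046508 to 2600092 in lung and 1493411 to 3842808 in skin. Levels are given as CPM, counts scaled to a common library total within each tissue's fit. A tag is counted once at a transcript's end, so CPM of different genes were not divided by length. Transporter transcripts took 0.862% of all kidney counts, 0.149% of liver, 0.088% of lung and 0.0512% of skin counts. Of the 53 members, 31 passed the filter on low counts in kidney, 18 in skin, 14 in lung and 12 in liver, 36 in at least 1 tissue and 4 in every tissue (Slc22a18, Slc22a23, Slco2a1 and Slco2b1). Members that did not pass had a highest library count of 19 in liver, 15 in lung, 13 in kidney and 11 in skin, and 5 members (Abcc12, Slc22a16, Slco6b1, Slco6c1 and Slco6d1) had no count anywhere. Differences were tested by edgeR's quasi-likelihood test over all genes of a tissue, and a member was called where the adjusted p (Benjamini-Hochberg over all genes tested) was under 0.05. Fold changes are log2 values ± SE. Tags of Prf1 were counted in every tissue, from 0 to 169 per library, and a 3′ tag outside the deleted part cannot check the genotype. In bulk tissue, fewer cells of a type and less RNA per cell cannot be told apart.

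Marker genes of each labelled tissue were present. All 14 proximal tubule genes were tested in kidney, all 12 hepatocyte genes in liver, all 11 alveolar and airway genes in lung and all 9 keratinocyte and hair follicle genes in skin. Immune and clock genes moved with the groups. T cell markers summed to 21.9 to 34.8 CPM in young kidney, 217 to 464 with vehicle and 71.8 to 139 with ABT-737, and in lung to 202 to 303, 2359 to 10069.8 and 443 to 2096. Macrophage markers summed in liver to 521 to 694 CPM in young mice, 2213 to 2805 with vehicle and 400.2 to 725 with ABT-737. Circadian clock genes summed to 843 to 949 CPM in young kidney against 321 to 348 with vehicle and 319 to 350.4 with ABT-737, and the groups of 20-month-old mice were below the young group in liver, lung and skin too. The part of these genes in the differences between young and 20-month-old mice was not tested.

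The young mice set out where each carrier was expressed. On a scale shared by kidney, liver and lung, 32 members were tested, and 19 had their highest mean in kidney, 9 in liver and 4 in lung. Between kidney and liver, 29 of 32 were called (20 higher in kidney, 9 lower), beside 51.5% of all genes. Between kidney and lung, 28 of 32 were called (24 higher, 4 lower), beside 74.7%, and between liver and lung 21 of 32 (12 higher in liver, 9 lower), beside 69.4%. Among the liver and lung calls, Slco4a1 had no liver count and 2.51 CPM in lung, and Slc22a28 had 1.74 CPM in liver and no lung count. Both lay under the liver floor of 3 counts (7.12 CPM), so their directions are not resolved. Slc22a19 and Slco1a6, also among the 32, had no count in either of these tissues. The median fitted difference of the members was 2.63 log2 units for kidney over liver and 5.78 for kidney over lung, against 0.34 and 0.03 for all genes, and 1.90 and 3.74 with the 9 and 5 genes that had no count in one tissue set at their bounds. Scaling by DESeq2's size factors shifted all genes by -0.13 and -0.18 log2 units and left the kidney and liver split at 20 and 9 calls.

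Organic anion carriers led the young kidney. Slc22a12, the apical urate carrier, stood at 1925 ± 179.6 CPM (SD, n = 4) and had no count in any young liver, at least 270.3-fold higher against the floor of 3 counts per liver library. Slc22a6, a basolateral carrier of organic anions, stood at 1564 ± 132 CPM, and Slc22a8, its close relative at the same membrane, was at least 90.9-fold higher in kidney than in liver. Slc22a2, the organic cation carrier of the renal basolateral membrane, was at least 65-fold higher, and Slc22a13, a carrier of nicotinate and urate, at least 45.4-fold. Slc22a19 and Slco1a6 had no count in young liver or lung and were at least 37.1-fold and 21.3-fold higher in kidney than in lung.

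Other carriers were shared or led elsewhere. The MATE carrier Slc47a1 stood at 664 ± 40.2 CPM in kidney and 96.2 ± 11.8 in liver. Slco1a1 was 3.1-fold higher in liver than in kidney (514 ± 58.2 against 166 ± 36 CPM). Slco1b2, the hepatocyte uptake carrier, had no count in young kidney or lung and was at least 37-fold higher in liver than in kidney. Slco2a1, which takes up prostaglandins, ran the other way, with 18 ± 2.96 CPM in kidney, 102 ± 9.04 in liver and 449 ± 33.3 in lung. Abcc5, an exporter of cyclic nucleotides, was also highest in lung (83.4 ± 11.1 CPM, against 28.6 ± 2.69 in kidney). Slc22a23, an orphan member, was at 68.1 ± 4.64 CPM in kidney, 90.1 ± 17.4 in liver and 70.9 ± 10.2 in lung. Kidney was below liver (log2 fold change -0.41 ± 0.17, adjusted p = 0.0406), and its kidney and lung levels did not differ beyond their spread (log2 fold change -0.06 ± 0.14, adjusted p = 0.708).

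**Figure D1:**
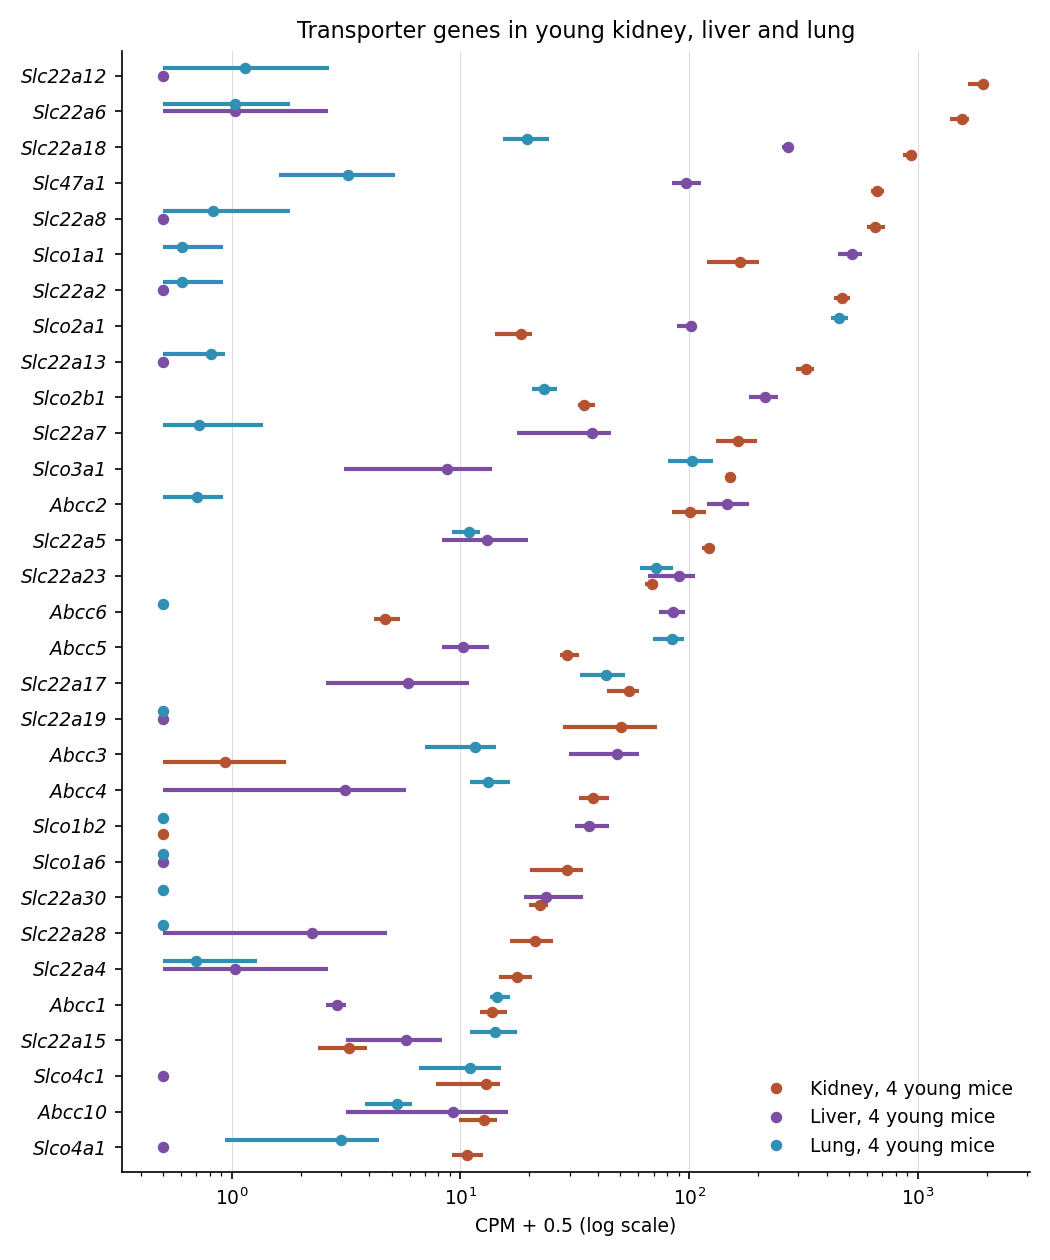
CPM plus 0.5 on a log axis for 31 of the 32 members tested across young kidney, liver and lung (point, mean of 4 mice; line, lowest to highest mouse). The kidney point lies furthest right for the organic anion carriers Slc22a12, Slc22a6 and Slc22a8, the liver point for Slco1a1 and Slco1b2, and the lung point for Slco2a1.

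In the kidney, the differences between vehicle-treated 20-month-old and young mice with the greatest size among called members were those of the organic anion carriers Slc22a7 and Slc22a19, both lower with vehicle. Of 31 members tested, 7 were called, 5 lower and 2 higher with vehicle, beside 13.3% of all 11123 genes tested, and 19 of 31 had a negative log2 fold change. The median over the members was -0.32, against 0.01 for all genes. By role, 3 of 9 organic anion carriers were called (all lower), 1 of 4 cation and carnitine carriers (lower), 2 of 7 Slco members (1 lower, 1 higher), 1 of 7 Abcc members (higher), 0 of 3 other Slc22 members and not the single MATE gene tested. In 12 of the 31 the libraries of the 2 groups did not overlap, which was so for 27.8% of all genes.

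Slc22a7, an organic anion and nucleotide carrier, was counted at 192, 218, 145 and 177 CPM in the 4 young kidneys, 58.9, 36.3 and 31.9 in those given vehicle and 67.3, 78.2 and 53.5 in those given ABT-737. Every young library lay above every 20-month-old library. The mean was 4.32-fold lower with vehicle than in young mice (log2 fold change -2.09 ± 0.22, adjusted p = 1.22e-05) and 2.76-fold lower with ABT-737 (log2 fold change -1.46 ± 0.21, adjusted p = 0.00149). Slc22a19, a renal carrier of sulfate conjugates from the chromosome 19 cluster, ran at 31.3, 55.1, 56.8 and 81.2 CPM in young, 14.9, 15.7 and 9.86 with vehicle and 13.9, 24.7 and 16.6 with ABT-737. Again no 20-month-old library reached the lowest young one. It was 4.16-fold lower with vehicle (log2 fold change -2.06 ± 0.30, adjusted p = 0.000291) and 3.05-fold lower with ABT-737 (log2 fold change -1.60 ± 0.29, adjusted p = 0.00811). Both genes were called in all of the fits that left out 1 library.

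Its cluster neighbour Slc22a30 read 24.4, 21.5, 24.6 and 26.8 CPM in young mice, 18.1, 8.89 and 6.1 with vehicle and 14.9, 19.8 and 11.9 with ABT-737. The vehicle group was lower (log2 fold change -1.08 ± 0.29, adjusted p = 0.0208), and in 7 of 10 fits without 1 library the call held, the exceptions being vehicle 4, vehicle 5 and young 4. Slc22a28, the third tested gene of that cluster, was at 23.2 ± 4.31 CPM in young and 10.3 ± 8.3 with vehicle and did not pass (adjusted p = 0.0623). Of the 50-base runs in the last 1000 bases of their transcripts, 34.9% in Slc22a28 and 15.4% in Slc22a30 recur in other genes, so counts of this pair may be split between near copies, whereas Slc22a19 and Slc22a7 shared none. Slc22a13 shared 49.3% with the pseudogene Slc22a13b-ps, itself a member by its symbol. Slc22a13 ran at 398, 374, 349 and 331 CPM in young, 325, 251 and 295 with vehicle and 199, 216 and 280.4 with ABT-737. It was called for ABT-737 against young (log2 fold change -0.65 ± 0.15, adjusted p = 0.035), with no overlap of the groups, in 3 of 10 fits without 1 library.

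The most abundant anion carriers stayed closer to their young levels. Slc22a12 was at 2159.9 ± 209 CPM in young, 1672 ± 301 with vehicle and 1693 ± 155 with ABT-737 (vehicle against young -0.37 ± 0.15, adjusted p = 0.128). Slc22a6 was at 1754 ± 155, 1395 ± 332 and 1733 ± 252 CPM (adjusted p = 0.223). Slc22a8 was at 726 ± 61.3, 705 ± 95 and 852 ± 60.0 CPM, with a 95% interval of -0.31 to 0.23 log2 units around the vehicle against young difference. The corresponding interval of Slc22a7 was -2.52 to -1.66, and the interval of none of these abundant carriers reached it.

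Among the cation and carnitine carriers, Slc22a2 was called. It read 540.4, 493, 477 and 568 CPM in young kidneys, 445, 252 and 322 with vehicle and 367, 515 and 509 with ABT-737. The vehicle libraries lay below all young ones (log2 fold change -0.61 ± 0.18, adjusted p = 0.0371), and the call held in 4 of 10 fits without 1 library, being lost without vehicle 4, vehicle 5 or any young library. Slc47a1, which extrudes cations into urine, was at 744 ± 44.9, 581 ± 111 and 716 ± 143 CPM (vehicle against young adjusted p = 0.163). The carnitine carrier Slc22a5 did not pass either (log2 fold change 0.09 ± 0.15), and neither did Slc22a4, a carrier of ergothioneine (-0.63 ± 0.23, adjusted p = 0.0854). Of the other Slc22 members, the imprinted gene Slc22a18 was at 1049 ± 73, 823 ± 105 and 989.8 ± 142 CPM (vehicle against young adjusted p = 0.127), and Slc22a17, a receptor for lipocalin, at 60.7 ± 8.1, 72.4 ± 5.82 and 73.9 ± 7.99.

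The polypeptides of the Slco family moved in both directions in kidney. Slco1a6 ran at 22.3, 30.6, 37.5 and 38.3 CPM in young, 21.6, 8.21 and 8.92 with vehicle and 25.7, 28.2 and 22.3 with ABT-737. The vehicle mean was 2.49-fold lower (log2 fold change -1.25 ± 0.29, adjusted p = 0.00942), vehicle 3 lying just under the lowest young library, and the call was lost without vehicle 5. Slco2a1 rose, from 15.4, 21.8, 20.8 and 22.6 CPM in young to 31.8, 32.2 and 28.2 with vehicle, against 18, 24.2 and 26.5 with ABT-737 (log2 fold change 0.60 ± 0.19, adjusted p = 0.0467 for vehicle against young). The groups did not overlap, but the call held in 3 of 10 fits without 1 library, being lost without any vehicle or any young library. It was also lost with DESeq2 and without the filter on low counts. Slco4c1, a basolateral carrier of the tubule, was at 14 ± 3.9 CPM in young, 10.9 ± 1.99 with vehicle and 7.78 ± 2.12 with ABT-737, with no call. Slco3a1 was at 175, 160.1, 170.1 and 169 CPM in young, 229, 189 and 234 with vehicle and 212, 273 and 245 with ABT-737, above young in all 6 libraries of 20-month-old mice, and did not pass (adjusted p = 0.0806 and 0.051).

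Of the 7 Abcc members tested in kidney, Abcc5 was called. It stood at 30.4, 31.1, 36.3 and 30.5 CPM in young, 32.6, 60.9 and 58.2 with vehicle and 28.3, 33.7 and 28.6 with ABT-737. Vehicle 4 and 5 were high and vehicle 3 lay within the young range (log2 fold change 0.63 ± 0.20, adjusted p = 0.0459), and the call held in 3 of 10 fits without 1 library, being lost without vehicle 4, vehicle 5, ABT-737 5 or any young library. Abcc2, the apical pump for conjugates, was at 112 ± 18 CPM in young, 115 ± 22.8 with vehicle and 150.2 ± 45.9 with ABT-737, and Abcc4, an apical pump for urate and cyclic nucleotides, at 42 ± 6.64, 50.5 ± 6.02 and 34.5 ± 3.12. Neither passed in any comparison, and Abcc6 was at 5.7 ± 2.58 CPM with vehicle.

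**Figure D2:**
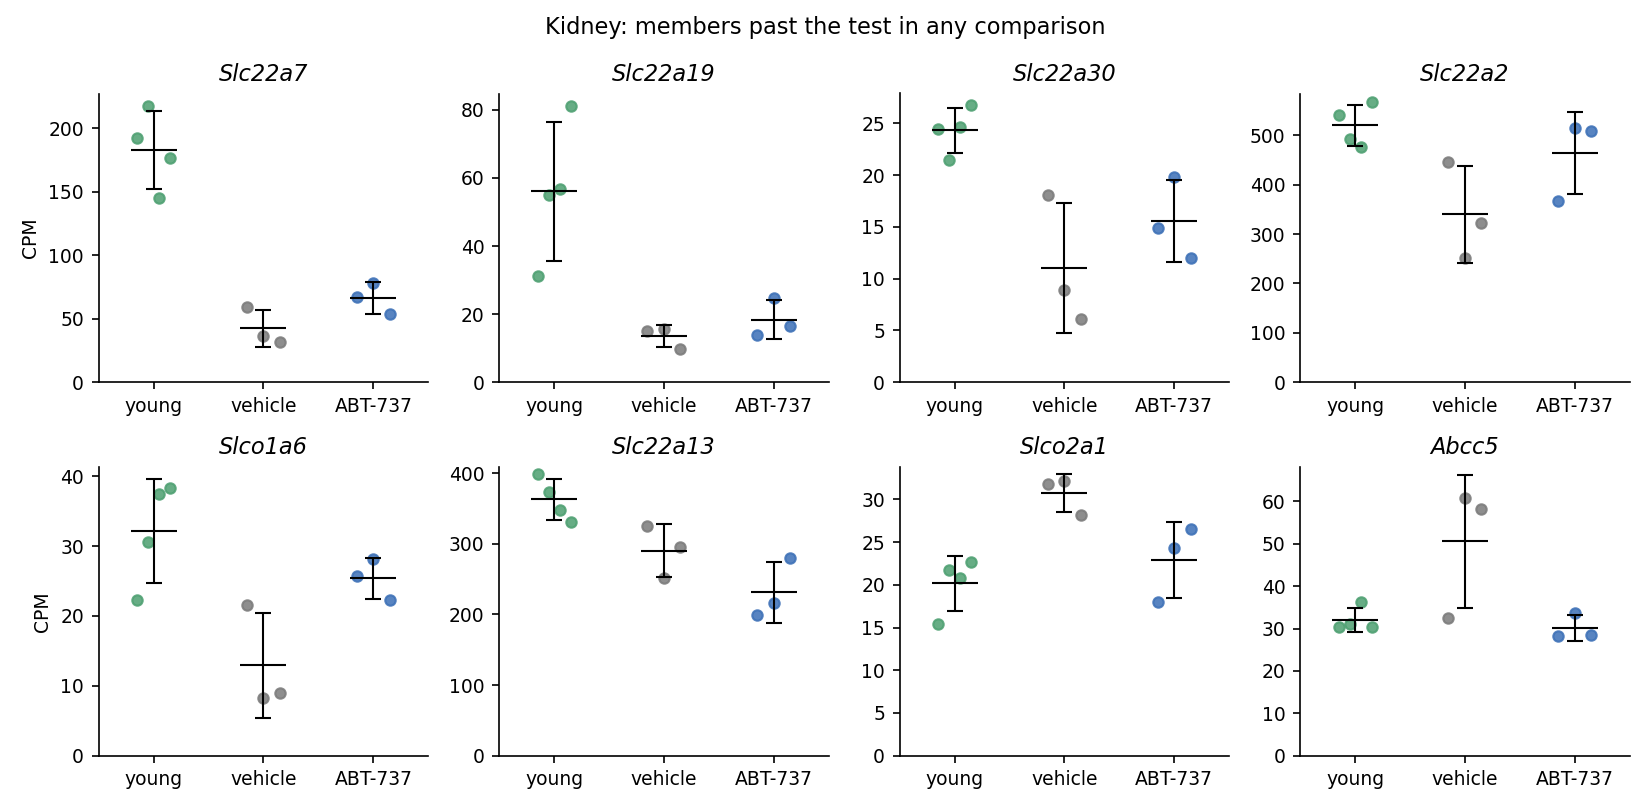
CPM of each kidney library (points) with the group mean and SD (bar) for the members past the test in any kidney comparison; each axis starts at 0. Slc22a7 and Slc22a19 in all 20-month-old libraries lie below the lowest young library, while for Slco1a6 and Abcc5 vehicle 3 lies apart from vehicle 4 and 5.

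ABT-737 against vehicle gave 0 of 31 member calls in kidney by edgeR and 0 by DESeq2, beside 1.35% of all genes. At an unadjusted p under 0.05 there were 7 of 31 (4 higher, 3 lower), against 14.8% of all genes. The smallest adjusted p among them was 0.0925, that of Slco1a1. Its levels were 209, 176, 133 and 228 CPM in young, 155, 34.9 and 24.4 with vehicle and 137, 383 and 240.4 with ABT-737. Vehicle 3 lay within the range of the young mice, and vehicle 4 and 5 far below every other library (log2 fold change 1.79 ± 0.49, adjusted p = 0.0925). For Slc22a7 the difference between ABT-737 and vehicle was 0.63 ± 0.23 (adjusted p = 0.208) and for Slco1a6 0.91 ± 0.32 (adjusted p = 0.188). Abcc5 (-0.72 ± 0.22), Abcc4 (-0.54 ± 0.18) and Slco2b1, a carrier of steroid sulfates (-0.49 ± 0.20), had the negative differences at an unadjusted p under 0.05.

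Vehicle 3 stood apart in the kidney. Its T cell markers summed to 217 CPM against 464 and 365 in vehicle 4 and 5, its acute phase genes to 75.8 against 291 and 145, and its proximal tubule genes to 20070.2 against 16428 and 17028. Without it, 5 members were called for ABT-737 against vehicle, beside 4.15% of all genes in that fit. Slco1a1 (log2 fold change 3.12, adjusted p = 0.000966), Slco1a6 (1.56, 0.0119), Slc22a7 (0.97, 0.0299) and Slc22a2 (0.69, 0.0466) were higher and Abcc5 was lower (-0.97, 0.00839). In that same fit 12 members were called for vehicle against young, beside 15.8% of all genes, with Slc22a12, Slc22a22, Slc22a28, Slc22a4, Slc47a1 and Slco1a1 gained and Slco2a1 lost. For each of the 5 and each member gained, vehicle 3 was the vehicle library nearest the mean of the other group. Leaving it out therefore widened these differences by construction, and the calls are no separate support. Each of the 5 was called for ABT-737 against vehicle in only 1 of 10 fits without 1 library. Both comparisons use the same vehicle libraries, so opposite signs in them are not independent of one another. Proximal tubule genes as a list were lower with vehicle than in young mice in 5 of 14 and higher with ABT-737 than with vehicle in 3, with sums of 20341 to 22664, 16428 to 20070.2 and 22545 to 25044 CPM in young, vehicle and ABT-737 kidneys. Macrophage markers rose in 7 of 7 with vehicle against young and fell in 4 with ABT-737 against vehicle. With all libraries in the fit, 13.3% and 1.35% of all kidney genes were called in these comparisons. The part of these in the transporter values was not tested.

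ABT-737 against young gave 3 calls in kidney, all lower with ABT-737 (Slc22a7, Slc22a19 and Slc22a13), beside 2.12% of all genes.

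In the liver, Slco1a1 differed most. Its levels were 414, 343, 401 and 329.9 CPM in young livers, 100.4, 7.02 and 55.2 with vehicle and 182, 222 and 161 with ABT-737. The 3 groups did not overlap, vehicle being lowest and young highest. The vehicle mean was 6.86-fold lower than the young (log2 fold change -3.02 ± 0.49, adjusted p = 0.000452), and the ABT-737 mean was 3.48-fold higher than the vehicle (log2 fold change 2.04 ± 0.51, adjusted p = 0.0333). ABT-737 against young did not pass (-0.97 ± 0.42, adjusted p = 0.167). The lower level with vehicle was called in 10 of 10 fits without 1 library. The higher level with ABT-737 was called in 3 of 10, those without a vehicle library, and was lost when any ABT-737 or young library was left out. It was also lost with the replicate number as a block (adjusted p = 0.211) and with only the 2 groups compared (adjusted p = 0.164). Over all its alternatives the adjusted p ran from 6.24e-08 to 0.211, with the same sign in each.

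Slco1b2, the other cluster member tested in liver, was counted at 25.2, 31.3, 24.6 and 23 CPM in young, 13.1, 5.85 and 8.99 with vehicle and 11.9, 3.79 and 4.95 with ABT-737, from 2 to 21 tags per library. The ABT-737 libraries held 3, 2 and 2 tags, at or under the floor of 3 counts, so fold changes of that group rest on few tags. All 6 libraries of 20-month-old mice lay below all young ones. It was called lower with vehicle (log2 fold change -1.65 ± 0.40, adjusted p = 0.00828) and with ABT-737 (log2 fold change -2.08 ± 0.48, adjusted p = 0.0135), and the groups at 20 months overlapped (-0.44 ± 0.60, adjusted p = 0.809). The call was lost without vehicle 4 in the first comparison and without ABT-737 4 or 5 in the second.

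**Figure D3:**
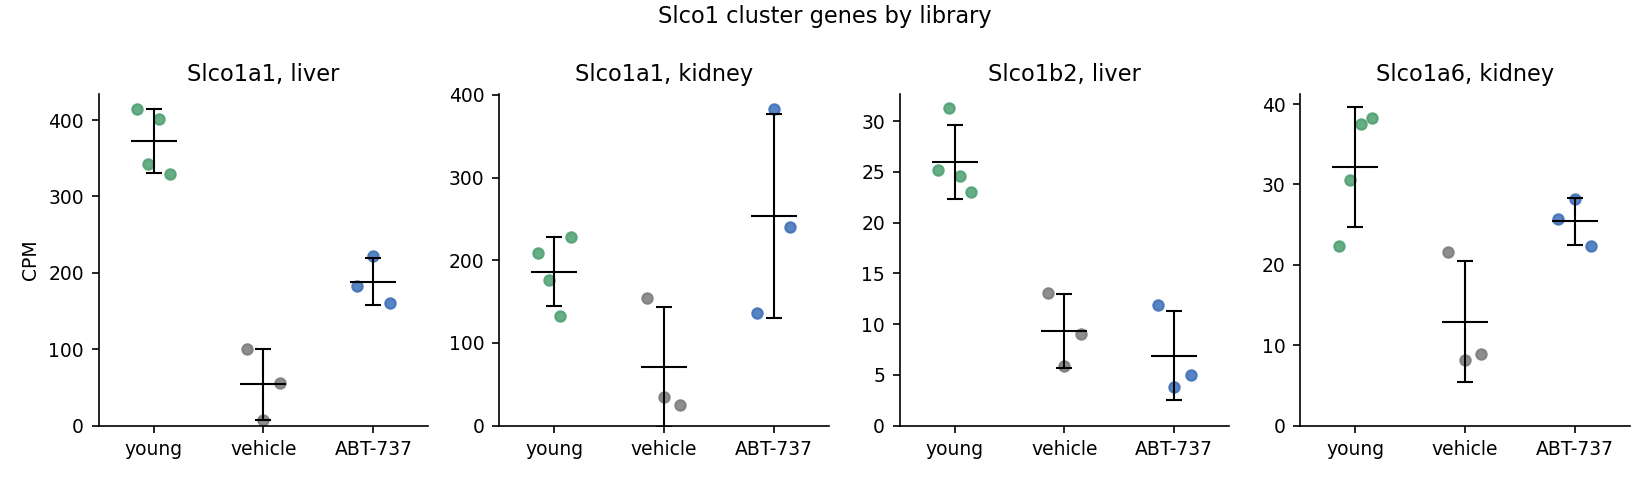
CPM by library (points) with the group mean and SD (bar) for Slco1a1 in liver and kidney, Slco1b2 in liver and Slco1a6 in kidney; each axis starts at 0. Slco1a1 in liver is lowest with vehicle and between the others with ABT-737, while Slco1b2 is low in both groups of 20-month-old mice.

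Of 12 members tested in liver, 2 were called for vehicle against young, both lower, beside 22.6% of all genes, 1 for ABT-737 against vehicle, beside 3.85%, and 1 for ABT-737 against young, beside 8.4%. The median log2 fold change of the members was -0.58 for vehicle against young (all genes 0.02) and 0.42 for ABT-737 against vehicle (all genes -0.03).

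Slco2a1 stood at 77.4, 62.6, 75.3 and 78.7 CPM in young liver, 48, 44.5 and 56.5 with vehicle and 103, 87.3 and 84.2 with ABT-737. The 3 groups did not overlap, but ABT-737 against vehicle did not pass (log2 fold change 0.86 ± 0.25, adjusted p = 0.0653). Of 10 fits without 1 library it was called in 1, that without vehicle 3 (adjusted p = 0.0378). It was called in 0 of 5 other alternatives. The export pumps did not pass in any comparison. Abcc2, at the bile canaliculus, was at 105 ± 18.8 CPM in young, 65.9 ± 19.5 with vehicle and 100.3 ± 16 with ABT-737. Abcc3, at the blood side, was at 34.8 ± 9.93, 20.6 ± 7.0 and 44.6 ± 13.1 CPM, and Abcc6, a hepatocyte pump whose loss causes ectopic mineralization, at 60.9 ± 7.44, 51.7 ± 8.37 and 61.4 ± 9.04. Slc47a1 ranged widely with vehicle (4.36, 22.2 and 56.5 CPM) beside 71.6, 59.6, 79.9 and 67.1 in young livers, and Slc22a7 was at 26.9 ± 9.85, 16.1 ± 8.87 and 32.4 ± 4.39 CPM.

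Known male-biased genes of liver and kidney, a list that leaves out Slco1a1, moved beside it in liver. Of 11 tested, 8 fell with vehicle against young and 5 rose with ABT-737 against vehicle, among them Hsd3b5, a steroid-metabolizing enzyme (4.76 ± 0.72), and Cyp4a12a, a fatty acid hydroxylase (2.27 ± 0.38). Of all genes in liver, 22.6% were called in either direction in the first comparison and 3.85% in the second. The list summed to 11869.7 to 16199 CPM in young livers, 2363 to 9697 with vehicle and 10598 to 16838 with ABT-737, and was lowest in vehicle 4, as was Slco1a1. Acute phase genes ran opposite, 9 of 13 rising with vehicle against young and 8 falling with ABT-737 against vehicle, with sums of 14472 to 21119.8, 27882 to 96976 and 19312 to 27832 CPM. Hepatocyte markers summed to 91671 to 111529, 74984 to 93238 and 113068 to 119135 CPM, and 1 of 12 was called for ABT-737 against vehicle. Their part in the transporter values was not tested.

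**Figure D4:**
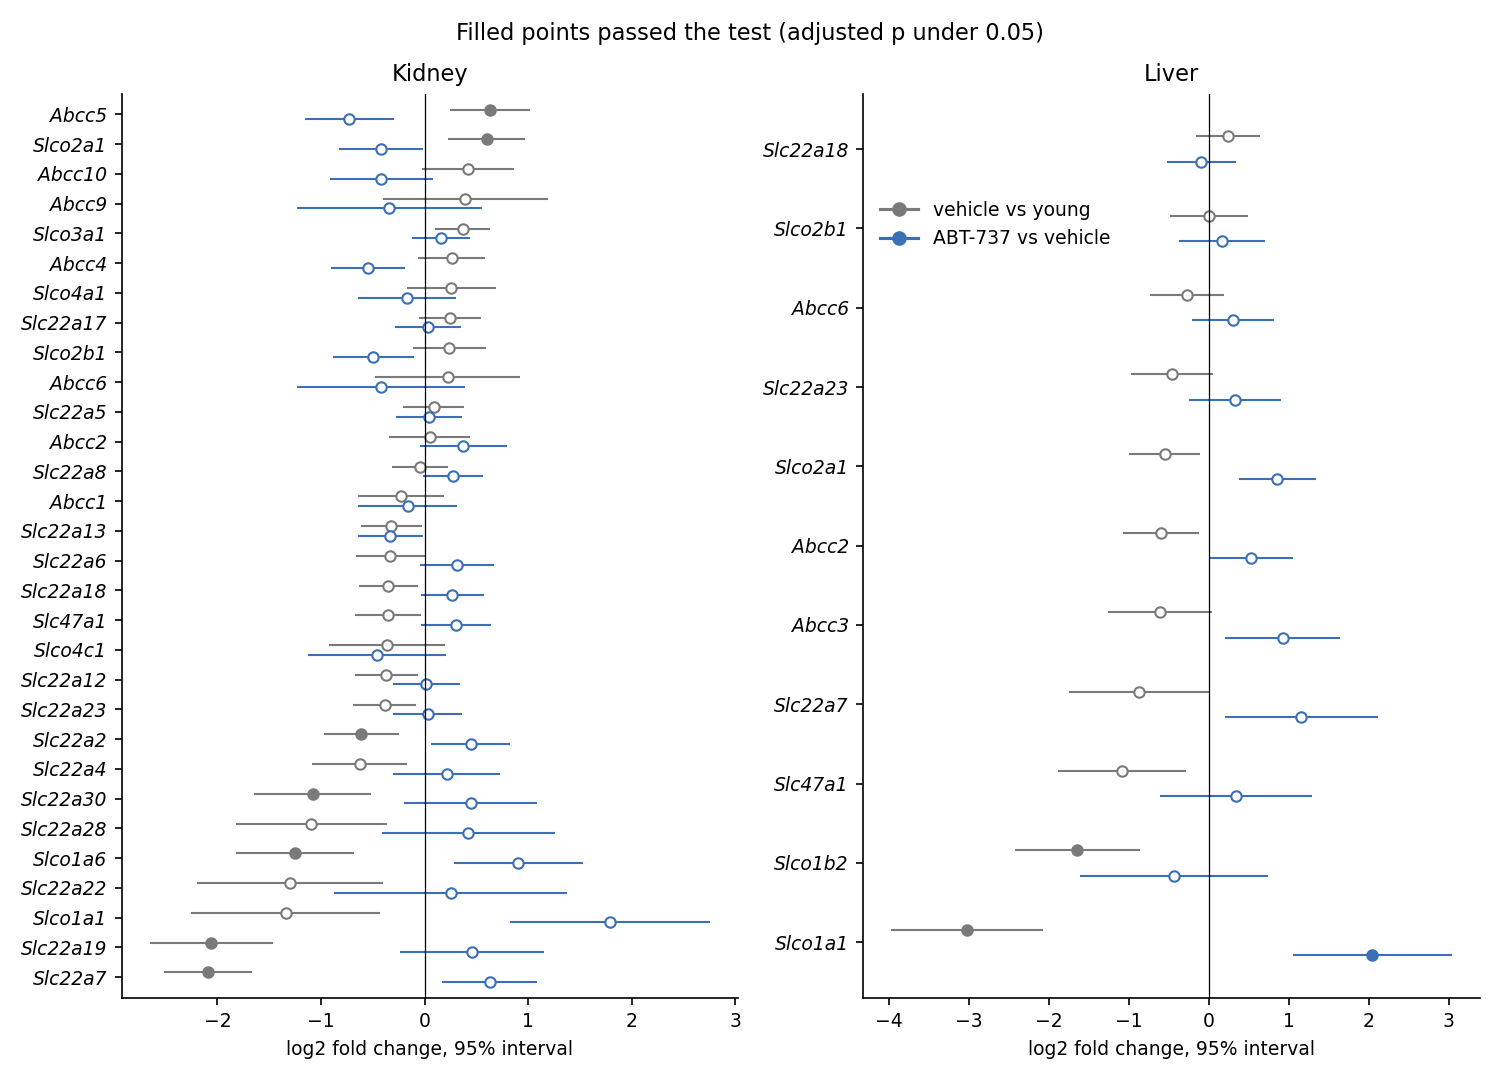
Log2 fold change with 95% interval for 30 of 31 members tested in kidney and 11 of 12 in liver, vehicle against young in grey and ABT-737 against vehicle in blue, filled where the adjusted p was under 0.05. Slc22a7 and Slc22a19 in kidney and Slco1a1 in liver reach furthest left for vehicle against young; the comparisons share the vehicle libraries.

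In the lung, 2 of 14 members were called for vehicle against young, beside 12.9% of all genes. Slc22a23 ran at 90.2, 75.8, 106 and 82.7 CPM in young, 44.9, 46.3 and 22.8 with vehicle and 59.3, 56.9 and 39.8 with ABT-737. All young libraries lay above all others, and vehicle was lower (log2 fold change -1.23 ± 0.29, adjusted p = 0.0148), a call lost without vehicle 5. Slco2b1 was at 29.9, 26.4, 32.6 and 25 CPM in young, 49.6, 67.8 and 49 with vehicle and 32.2, 49.5 and 35.8 with ABT-737. It rose with vehicle (log2 fold change 0.96 ± 0.25, adjusted p = 0.0229), a call lost without vehicle 4 or young 1, 2 or 4. Macrophage markers, which rose in 5 of 9, summed to 1149 to 1482, 3246 to 6850.4 and 1490.3 to 4152 CPM in young, vehicle and ABT-737 lungs, and their part was not tested.

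Slco2a1, the most counted member in lung, read 519.9, 615, 543 and 567 CPM in young, 204, 517 and 102 with vehicle and 345, 429.9 and 151 with ABT-737. Vehicle 3 and 5 and ABT-737 5 were low, vehicle 4 was near young, and no comparison passed (log2 fold change -1.03 ± 0.47, adjusted p = 0.157 for vehicle against young). Endothelial markers summed to 1633, 2681 and 840.5 CPM in vehicle 3, 4 and 5, against 3014 to 3306 in young lungs. With ABT-737 they summed to 2744, 2021 and 1577 CPM, and their part was not tested. Slco3a1 (128 ± 26.6 CPM in young, 87.7 ± 8.83 with vehicle), Abcc5 (104 ± 13.6, 86.3 ± 27.1), Slc22a17 (53.5 ± 9.75, 26 ± 13), Abcc1 (17.4 ± 1.62, 24.6 ± 6.69) and Abcc4 (15.8 ± 3.16, 23.6 ± 8.1) were not called. ABT-737 against vehicle gave 0 of 14 by edgeR and 0 by DESeq2, beside 0% of all genes, and 0 of 14 at an unadjusted p under 0.05, against 16.1% of all genes. On simulated lung counts this comparison called 3.74% of 2-fold and 66.3% of 4-fold changes, so its 0 calls do not show an absence of change. ABT-737 against young gave 0 of 14 by edgeR and 0 by DESeq2, beside 2.55%, and 3 of 14 at an unadjusted p under 0.05, against 20.5% of all genes.

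In the skin, Slc22a23 was higher in both groups of 20-month-old mice. It was at 13.7, 16.7 and 16.8 CPM in young, 37.4, 33.5 and 40.6 with vehicle and 28.3, 44.3 and 48.5 with ABT-737. Every library of 20-month-old mice lay above every young one, with 2.36-fold higher vehicle (log2 fold change 1.23 ± 0.24, adjusted p = 0.0189) and 2.56-fold higher ABT-737 means (log2 fold change 1.34 ± 0.24, adjusted p = 0.0257). The calls held in 5 of 9 and 4 of 9 fits without 1 library, being lost without any young library, without vehicle 5 in the first and without ABT-737 4 or 5 in the second. In the skin table the gene Psmg4 on the opposite strand overlaps the whole of the last 1000 bases of Slc22a23, and whether counting used strand is not given in the sources used here, so reads of the pair may not be told apart. Psmg4 was at 28.7 ± 2.58 CPM in young, 41.4 ± 2.94 with vehicle and 38.6 ± 2.64 with ABT-737 and did not pass (adjusted p = 0.0689 and 0.129).

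Slco2a1 ran at 105, 104 and 79.6 CPM in young skin, 43.9, 60.1 and 61.5 with vehicle and 50.9, 32.5 and 41.7 with ABT-737. All young libraries were above all others. ABT-737 against young passed (log2 fold change -1.20 ± 0.23, adjusted p = 0.0287), vehicle against young did not (log2 fold change -0.80 ± 0.23, adjusted p = 0.0518), and the first call was lost without ABT-737 4, ABT-737 5 or any young library. Slc22a4 was also lower in every library of 20-month-old mice than in every young one, without passing, at 34.7, 28.2 and 25.5 CPM in young, 5.71, 13.2 and 12.1 with vehicle and 16.1, 4.7 and 11 with ABT-737 (adjusted p = 0.0562 and 0.0762). Of 18 members, 1 was called for vehicle against young, beside 11.2% of all genes, and 2 for ABT-737 against young, beside 5.17%. For ABT-737 against vehicle 0 were called by edgeR and 0 by DESeq2, beside 0%. At an unadjusted p under 0.05 there were 3 of 18, against 7.97% of all genes. On simulated skin counts this comparison called 3.51% of 2-fold and 45% of 4-fold changes, so its 0 calls do not show an absence of change. Of the other most counted members, Slco3a1 (113 ± 15.8 CPM in young, 101 ± 17 with vehicle), Abcc5 (111 ± 8.08, 69.9 ± 25.2), Abcc1 (47.5 ± 4.8, 46.4 ± 6.48) and Slco2b1 (29 ± 11.8, 75.3 ± 56.8) were not called. Skeletal muscle genes summed to 53276 to 76421 CPM in young skin, 8535 to 37648 with vehicle and 13971 to 44636 with ABT-737, with 1 of 7 called lower with vehicle, and their part was not tested.

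The 4 members tested in every tissue can be set side by side. For Slc22a23, the vehicle against young log2 fold change was -0.38 ± 0.16 (kidney), -0.46 ± 0.26 (liver), -1.23 ± 0.29 (lung) and 1.23 ± 0.24 (skin, counted on other gene models). For Slco2a1 it was 0.60 ± 0.19 (kidney), -0.55 ± 0.23 (liver), -1.03 ± 0.47 (lung) and -0.80 ± 0.23 (skin). For Slco2b1 it was 0.24 ± 0.18 (kidney), 0.00 ± 0.25 (liver), 0.96 ± 0.25 (lung) and 1.36 ± 0.55 (skin), and for Slc22a18, which passed in no tissue, -0.35 ± 0.15, 0.24 ± 0.20, -0.23 ± 0.32 and 0.58 ± 0.35. In the skin table opposite-strand genes overlap the last 1000 bases of Slc22a23 (Psmg4) and of Slc22a18 (Phlda2). In a joint fit of kidney, liver and lung the difference between tissues was called for 2 of 33 members, Slco2a1 (adjusted p = 0.0394) and Slco3a1 (0.0308), beside 13.9% of all genes. Without the filter on low counts the call of Slco3a1 was lost (adjusted p = 0.0901) and Slc22a17 was called (0.0394). For Slco2a1 the kidney change exceeded the liver change by 1.12 log2 units, and the lung change was 0.51 units below the liver change. For Slco3a1 the kidney change was 0.44 and the lung change 1.34 units below that of liver, where at most 9 tags were counted per library. For ABT-737 against vehicle the difference between tissues was called for 0 of the 33 members, beside 0.0992% of all genes.

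**Figure D5:**
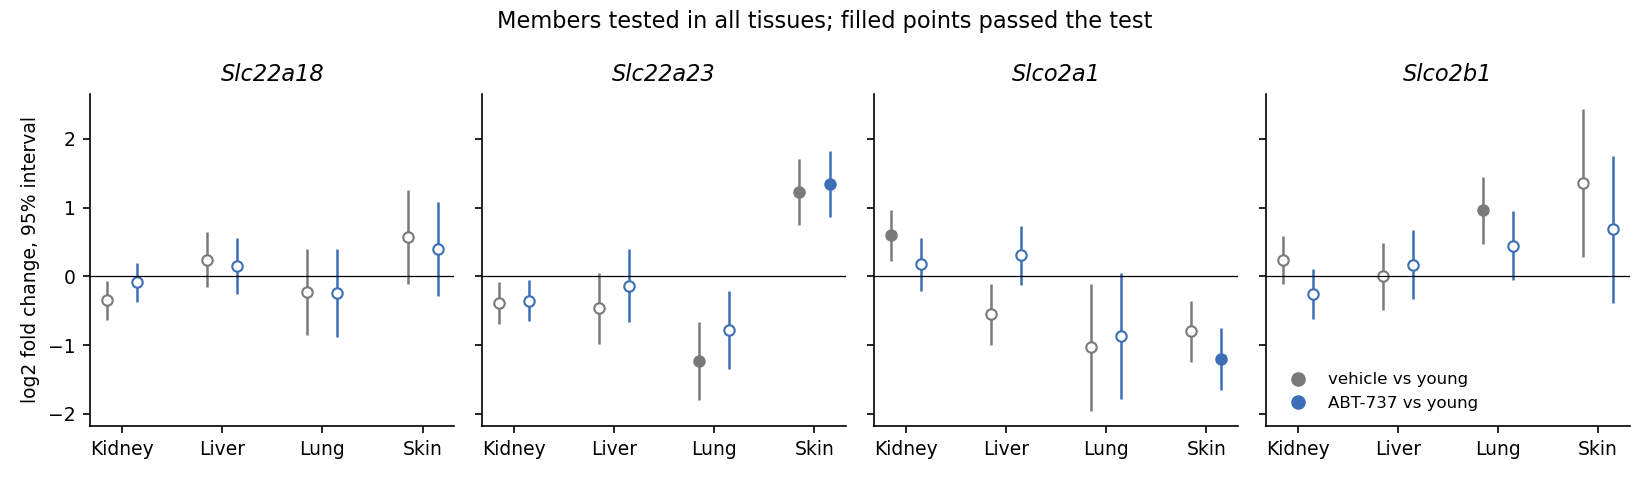
Log2 fold change with 95% interval of vehicle (grey) and ABT-737 (blue) against young for the 4 members tested in every tissue, filled where the adjusted p was under 0.05. Slc22a23 lies below 0 in lung and above 0 in skin, and Slco2a1 above 0 in kidney and below 0 in skin.

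Carriers outside the 4 families, a list of 28 genes for drugs, bile acids and nucleosides, were examined beside the members. In kidney 3 of 20 rose with vehicle against young and 1 fell, beside 13.3% of all genes called. The risers were the efflux pump Abcb1b (1.64 ± 0.29), the monocarboxylate carrier Slc16a1 (1.54 ± 0.19) and the bile acid carrier subunit Slc51b (0.67 ± 0.19), and the phosphate and urate carrier Slc17a3 fell (-0.92 ± 0.29). In liver, where 22.6% of all genes were called, 2 of 12 fell, the bile acid uptake carrier Slc10a1 (-2.90 ± 0.52, adjusted p = 0.000994) and Slc17a3 (-2.05 ± 0.43). In lung Abcb1b (2.48 ± 0.59) and the nucleoside carrier Slc28a2 (3.60 ± 0.74) rose among 9, beside 12.9% of all genes called, and Slc9a3r2, a scaffold protein that anchors carriers and not a carrier itself, fell (-1.88 ± 0.53). Its relative Slc9a3r1 rose in skin (1.76 ± 0.44), 1 of 13 tested, beside 11.2% of all genes. With ABT-737 against young, Slc10a1 (-2.35 ± 0.51) and the sterol exporter subunit Abcg5 (-1.40 ± 0.27) were lower in liver. For ABT-737 against vehicle none of the 20 in kidney, 12 in liver, 9 in lung or 13 in skin was called.

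Among nuclear receptors and factors known to control such genes, 1 of 16 tested in kidney was called higher and 1 lower with vehicle against young, beside 13.3% of all genes called. The xenobiotic receptor Nr1i2 rose (1.15 ± 0.27) and the bile acid receptor Nr1h4 fell (-0.71 ± 0.16). In liver 2 of 18 were called higher and 3 lower, beside 22.6% of all genes, and 2 were higher with ABT-737 than with vehicle, beside 3.85%. Onecut1, a hepatocyte factor, fell with vehicle (-2.53 ± 0.45) and was higher with ABT-737 than with vehicle (2.63 ± 0.48), and Foxa2 (-1.39 ± 0.36) and Cebpa (-0.93 ± 0.27) fell. The lipid sensor Ppara was higher with ABT-737 than with vehicle in liver (0.82 ± 0.22).

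Known carriers below the filter are given by their counts. Slco1a4, an uptake carrier of liver and brain vessels, had at most 2 tags in any kidney or liver library, and Abcc3 had at most 6 in kidney. The second MATE gene Slc47a2 had at most 3 tags in kidney, lung and skin libraries. Slc22a3, a cation carrier of wide expression, had at most 10 in skin, 7 in kidney, 5 in lung and 1 in liver. Differences in these genes were not tested in those tissues.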

How the data were processed

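Bulk RNA of 39 libraries was prepared by a derivation of MARS-seq, which tags 3′ ends of polyadenylated RNA. The deposited values were whole-number counts per gene, made by the authors, with RefSeq genes for kidney, liver and lung and a separate transcript table for skin, in which 82.5% of matched transcripts end 2000 bases beyond their annotated end. The submitters' processing notes name bcl2fastq, HISAT 0.1.5, HOMER and mm10. Their roles, the use of strand and whether molecule barcodes were collapsed are not given in the sources used here. Some treatment labels spell the drug with another number, and titles set the group.

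Counts were fitted per tissue with edgeR 4.0.16 in R 4.3.3 (TMM scaling, filterByExpr, quasi-likelihood F test, 3 groups in each fit), with Benjamini-Hochberg adjustment over all genes tested. Young kidney, liver and lung were fitted together (12 libraries), and a joint fit of 30 libraries tested differences between tissues. The floor was 3 counts per library. Folds against it cover counting error only. The skin table was tested alone, and no column was left unmapped. The script was tested on simulated data.

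Alternatives were DESeq2 1.42.0, its size factors in edgeR, no filter on low counts, a fit of only the 2 groups compared, the replicate number as a block, and each library left out in turn. The study counts replicates as mice, and libraries were taken as separate animals. Replicate numbers were shared by vehicle and ABT-737 libraries. The numbers also recur across tissues and may mark the same mouse there, and the main fits across tissues took those libraries as separate animals. Correlations of same-numbered libraries were 0.17, 0.29 and 0.42 in lung and -0.17, -0.21 and 0.01 in kidney. They were -0.03, 0.16 and -0.03 in liver and -0.58, -0.58 and 0.28 in skin. Differently numbered pairs reached 0.29 in lung and 0.74 in skin, so these values do not settle whether the numbers pair libraries.

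The members and gene lists were chosen with earlier results of these data known. Named members were those called in any comparison within a tissue, the 8 most counted in each tissue and 16 well-known carriers, and genes outside the families were the 4 largest called changes of a list. The values of 1 member and 1 gene of a list are not reported here, though both are in the counts. Promoters were RefSeq sequences on GRCm38.p6.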

Additional observations from a re-analysis of the deposited data

Results flagged for a closer look

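In 57 groups of 4 young libraries examined for a value far from the rest, 4 were found, beside about 1 in 20 that chance gives. Young kidney 3 was high for Abcc5 (36.3 CPM) and low for Slc22a12 (1847 CPM) and Slco4c1 (8.2 CPM), and young liver 3 was low for Slc22a7 (12.3 CPM).

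The vehicle against young difference itself differed between kidney, liver and lung for Slco3a1 (adjusted p = 0.0308) and Slco2a1 (adjusted p = 0.0394) in edgeR's joint fit, and the call of Slco3a1 was lost without the filter on low counts (adjusted p = 0.0901). In 3 further cases every library of a group lay on opposite sides of the young mice in a pair of tissues, and the difference between them was not tested. Vehicle and young libraries did not overlap for 27.8% of all genes in kidney, 29.8% in lung and 39.5% in skin. Abcc10 was lower with vehicle in skin (log2 fold change -0.91) and higher in kidney (0.42), and edgeR called neither (adjusted p = 0.0639 and 0.242). In the skin table the opposite-strand gene Dlk2 overlaps the last 1000 bases of Abcc10, against 52 bases in the kidney, liver and lung table. Slc22a23 was higher in skin (1.23) and lower in lung (-1.23). Slco2a1 was lower in skin (-0.80) and higher in kidney (0.60).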

How the results depend on the processing

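Counts of called members were recomputed under 221 alternatives for 17 comparisons, of which 174 stayed within 1.5 times the reported count, 16 were higher and 31 lower, and none of 33 results for single genes changed sign. Without a filter on low counts, 1 member was called for kidney ABT-737 against vehicle, 4 for liver vehicle against young, 2 for liver ABT-737 against young and 3 for skin vehicle against young. With only the 2 groups compared the counts were 0 for liver ABT-737 against vehicle, 2 for liver ABT-737 against young and 3 for skin vehicle against young, and DESeq2 gave 3 for the last. With the replicate block, liver ABT-737 against vehicle gave 0 calls in place of 1, and kidney, lung and skin stayed at 0. The cause of these changes was not tested. Leaving out 1 library at a time gave, for ABT-737 against vehicle, 0 to 5 calls in kidney and 0 to 3 in liver; for vehicle against young, 3 to 12 in kidney, 1 to 3 in liver, 1 to 3 in lung and 0 to 3 in skin; and for ABT-737 against young, 2 to 4 in kidney, 0 to 2 in liver, 0 to 1 in lung and 0 to 5 in skin. The highest kidney counts came without vehicle 3 (5 and 12). In that fit the share of all genes called rose too, from 1.35% to 4.15% for ABT-737 against vehicle and from 13.3% to 15.8% for vehicle against young. For the other alternatives the share of all genes is not given here, so these counts are not particular to the transporters. Between young tissues the ranges were 27 to 30, 27 to 29 and 19 to 23. Liver libraries were the shallowest, and their floor of 3 counts stood at 3.51 to 13.1 CPM. There 41 of 53 members did not pass the filter.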
